A study of Arabidopsis thaliana with 36 samples.

Results

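The mitochondrial sites of the Arabidopsis pseudouridine (Ψ) catalogue comprised 15 of the 535 listed positions, namely 8 of 186 in rRNA and 7 of 349 in tRNA. They were taken as the rRNA positions that carry neither a nuclear nor a chloroplast label, without 3 neighbouring positions of the same rRNA, and the tRNA positions whose names end in -MT. The 39 sites of tRNAs with a joint nuclear and mitochondrial name were not included. Every site was described across 9 tissues of wild-type Arabidopsis thaliana, accession Col-0, namely root, seed, flower, seedling, silique, cauline leaf, stem, rosetta leaf (as the labels spell it) and shoot. Seedlings, and at a later stage shoots and roots, came from plate-grown plants, rosetta leaves from plants moved to soil, the stem, cauline leaf, flower and silique from flowering plants, and seeds were mature and dry. Shoots and roots shared age and medium, as did the tissues of flowering plants their stage, whereas across these sets tissue cannot be told apart from age and growth medium.

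Ψ is an isomer of uridine, made in place after transcription by pseudouridine synthases. Bacterial synthases are single proteins that recognise their target RNA without a guide, and those of plant organelles belong to the same families. In tRNA, the Ψ of the T loop helps to hold the L-shaped fold by contacting the D loop, and Ψ in the anticodon arm stabilises that stem. In the large-subunit rRNA, Ψ is concentrated around the peptidyl transferase centre and at the interface of the subunits.

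BID-seq, in which bisulfite forms an adduct with Ψ that reverse transcriptase skips, reads a Ψ as a deletion. The Ψ fraction is the share of RNA molecules that carry Ψ at a base, between 0 and 1. Total RNA of each tissue went into 2 bisulfite-treated and 2 untreated input libraries, 36 in all. For a given site, the deposited tables hold 1 fraction per tissue, in which the authors had pooled the replicates, with a flag for whether the site passed their filter in that tissue. The depth behind a fraction is unknown and no replicate spread can be computed, so no difference below was tested and each is given as a description of these pooled values. Of the 135 pairs of member site and tissue, 133 had a value, 98 passed the filter and 21 were listed at exactly 1. No value was listed at 0.

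Positions in the rRNA table count along the authors' own reference, so the sites were first placed on the TAIR10.1 assembly. Sliding the 11 mitochondrial rRNA positions, the 3 neighbours included, along both strands of the mitochondrial genome was not decisive, because it gave 2 placements with a T at all 11 positions and neither touched an annotated rRNA. Within the annotated 26S gene, rrn26 (chrMT:140797-143965, reverse strand), a single one of 1789 offsets put 10 of 10 positions on a T and the next best put 8. This placement was chosen after the data were seen. In an alignment of the 26S with the chloroplast 23S rRNA, the 3 neighbours and position 2267 each fell on a base that the chloroplast part of the table also lists. Position 2820 would fall 287 bases past the annotated end of the gene and was left without a place. The 7 placed members lay between bases 1609 and 2989 of the 3169-base gene. The exact 31-base window around each of the 7 occurred once in the mitochondrial genome and nowhere in the nuclear assembly.

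The stretches that hold the sites of high or intermediate fraction are shown first, because the results turn on them and their sequence tells which base can be assigned. They are printed 5′ to 3′ as DNA of the RNA strand, with the Ψ of each member in capitals. The 3 neighbours left out of the members also lie in the stretch with 1596, at its bases 21, 25 and 27, and are printed in lower case. The first set covers position 1596 (chrMT:141714-141764, reverse strand), position 1545 (chrMT:141770-141800, reverse strand), then positions 2166, 2242 and 2267 in this order (chrMT:141043-141184, reverse strand), and last the chloroplast 23S window aligned with position 2267 (chrPT:107298-107328, forward strand).
Mt-26S with position 1596: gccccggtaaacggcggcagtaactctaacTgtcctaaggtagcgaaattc
Mt-26S with position 1545: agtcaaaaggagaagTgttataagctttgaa
Mt-26S with positions 2166, 2242 and 2267: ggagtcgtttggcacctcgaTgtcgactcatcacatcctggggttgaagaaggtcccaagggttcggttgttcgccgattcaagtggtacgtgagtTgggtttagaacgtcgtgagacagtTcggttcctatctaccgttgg
Pt-23S at the aligned base: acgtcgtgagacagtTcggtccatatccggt
Positions 2242 and 2267 are each the second of a pair of T's, so a deletion there cannot be assigned to 1 of the 2 bases. Positions 1545, 1596 and 2166 are single T's. The strongly conserved run around 2242 and 2267 belongs to the part of large-subunit rRNA that forms the peptidyl transferase centre, and the stretch with 1596 includes the hairpin that reaches to the small subunit.

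The 7 tRNA sites fell in 4 mitochondrial tRNAs, which are shown whole because site and standard tRNA number differ between them. His-GTG-3-MT matched trnH(GTG) (chrMT:124603-124676, reverse strand), Lys-TTT-2-MT matched trnK(TTT) (chrMT:19928-20000, forward strand, with an identical second gene), and the 2 Met-CAT tRNAs matched the initiator genes trnfM(CAT) at chrMT:171570-171643 (reverse strand) and chrMT:149673-149743 (forward strand). The chloroplast tRNA-His (chrPT:4-76, reverse strand) and a nuclear tRNA-His (chr1:552640-552711, forward strand) follow for comparison.
His-GTG-3-MT: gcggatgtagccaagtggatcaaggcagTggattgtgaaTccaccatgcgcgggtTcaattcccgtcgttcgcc
Lys-TTT-2-MT: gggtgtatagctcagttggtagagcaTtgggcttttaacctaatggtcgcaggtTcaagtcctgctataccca
Met-CAT-4-MT: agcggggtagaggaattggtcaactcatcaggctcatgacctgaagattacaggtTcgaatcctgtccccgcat
Met-CAT-6-MT: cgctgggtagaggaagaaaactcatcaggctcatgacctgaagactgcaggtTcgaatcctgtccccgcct
His-GTG-3-PT: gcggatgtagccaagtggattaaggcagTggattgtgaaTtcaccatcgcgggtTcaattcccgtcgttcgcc
nuclear tRNA-His: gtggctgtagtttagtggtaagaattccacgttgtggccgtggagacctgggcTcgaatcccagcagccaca
In the standard tRNA numbering, the last capital of each mitochondrial tRNA is position 55 of the T loop, and in all 4 it is the second T of a pair that is followed by C. The other 3 tRNA sites lay in the anticodon stem, opposite an A in each case. They were standard positions 28 and 39 in tRNA-His and 27 in tRNA-Lys. Position 27 of tRNA-Lys is also in a pair of T's. In yeast, the synthase Pus1 modifies positions 27 and 28 of cytoplasmic tRNAs and Pus3 modifies 39. The T loop Ψ is made there by Pus4, or by TruB in E. coli.

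The 15 sites fell into 3 ranges of level. The median fraction over the tissues was at least 0.9 at 9 sites, 3 of 8 in rRNA and 6 of 7 in tRNA. Over all sites of the tables this held for 26.3% of rRNA sites and 45.8% of tRNA sites. The median was under 0.1 at 3 rRNA sites and at none of the tRNA sites, against 30.1% of all rRNA sites and 9.17% of all tRNA sites. The remaining 3 sites, Mt-rRNA positions 1596 and 2166 and site 29 of tRNA-His, were in between. The members' own median was 0.564 in rRNA, against 0.417 over all 186 rRNA sites, and 0.989 in tRNA, against 0.882 over all 349 tRNA sites.

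**Figure D1:**
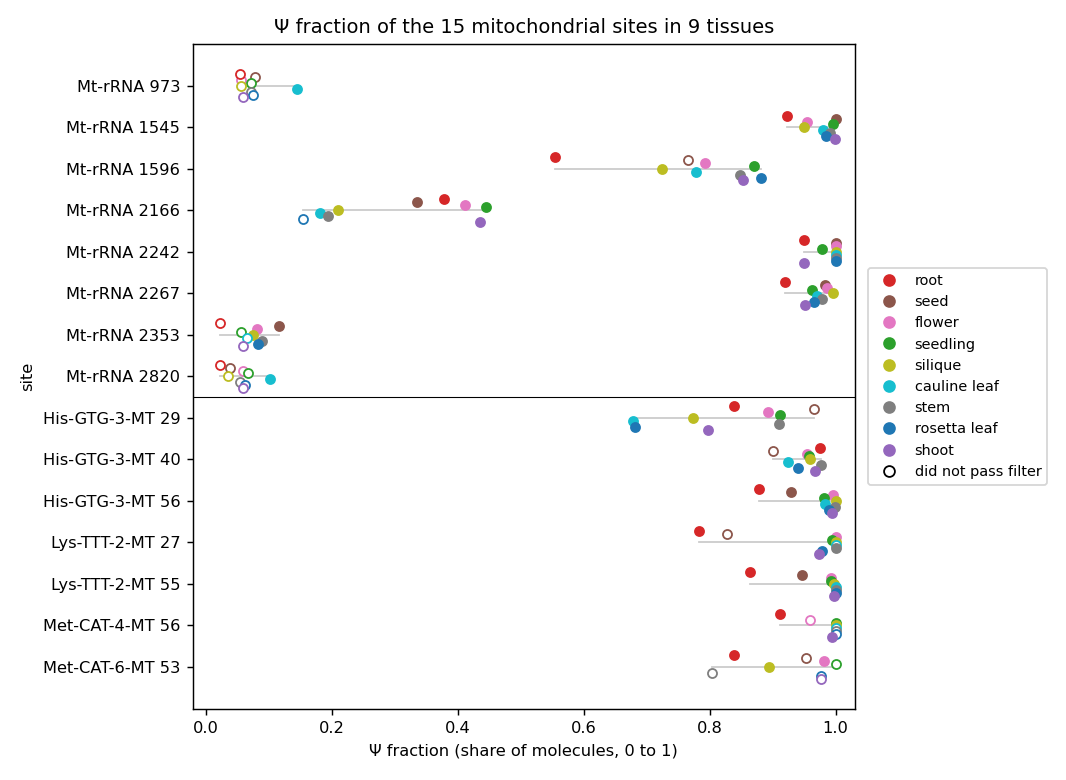
Ψ fraction (horizontal axis, share of molecules) of the 15 mitochondrial sites (rows, rRNA above the line and tRNA below it) in each of the 9 tissues. Each point is 1 pooled tissue value, filled where the site passed the authors' filter and hollow where it did not, and the grey line runs over the site's range. Root lies at the low end of 11 of the 15 rows.

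All 15 sites passed the filter in at least 1 tissue, as a listed site would, and 5 passed in all 9 tissues. These were Mt-rRNA positions 1545, 2242 and 2267 and the T loop sites of tRNA-His and tRNA-Lys, that is 3 of 8 rRNA sites (52.2% of all rRNA sites) and 2 of 7 tRNA sites (54.7% of all tRNA sites). The tissue with the fewest members passed was seed, with 7 of 15, and the other tissues passed between 10 and 13. In seed, 5 of 8 rRNA members passed, where 79.6% of all rRNA sites did, and 2 of 7 tRNA members, where 61.9% of all tRNA sites did. The flag does not follow the level alone, since tRNA-His site 29 did not pass in seed at 0.966, its highest value. At Mt-rRNA positions 973, 2353 and 2820, by contrast, the tissues that passed were those with the highest values.

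Mt-rRNA position 1545 was close to fully modified in each tissue. It read 0.923 in root, 1 in seed, 0.955 in flower, 0.996 in seedling, 0.949 in silique, 0.98 in cauline leaf, 0.991 in stem, 0.984 in rosetta leaf and 0.999 in shoot. Root was the lowest and silique the next. The aligned base of the chloroplast 23S is also a T but is not listed, and the match of the 2 rRNAs is weak there, with 19 of 31 bases identical.

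Mt-rRNA position 2242 had a fraction of exactly 1 in 6 of 9 tissues. The other values were 0.979 in seedling, 0.95 in shoot and 0.949 in root. Root and shoot thus sat together at the low end. The aligned bases of the chloroplast 23S (28 of 31 bases identical) and of the nuclear 25S (25 of 31) are T's as well, and neither is listed in the tables.

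At Mt-rRNA position 2267 the fraction was 0.919 in root, 0.983 in seed, 0.986 in flower, 0.963 in seedling, 0.996 in silique, 0.971 in cauline leaf, 0.979 in stem, 0.965 in rosetta leaf and 0.952 in shoot. Root was again the lowest, with a gap of 0.033 to shoot. It was the only member whose aligned chloroplast base was itself a listed site (chrPT:107313). The median was 0.971 at the mitochondrial site and 0.963 at the chloroplast site, both had 0.919 in root, and the mitochondrial value minus the chloroplast value lay between -0.009 and 0.033 over the 9 tissues. The nuclear 25S lists the neighbour of the aligned base within the same pair of T's. Its median was 0.895, and the mitochondrial site was higher in all 9 tissues, by a median difference of 0.087.

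Position 1596 was a partly modified site with a wide spread. It read 0.554 in root, 0.765 in seed, 0.792 in flower, 0.87 in seedling, 0.724 in silique, 0.778 in cauline leaf, 0.849 in stem, 0.881 in rosetta leaf and 0.853 in shoot, and passed in all tissues but seed. Root stood apart from the other tissues, with 0.17 between it and silique, the next tissue, while those other tissues spanned 0.724 to 0.881.

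The base aligned with position 1596 is a T in the nuclear 25S (chr2:8398), where it is a listed site, and a G in the chloroplast 23S, where 28 of 31 surrounding bases are the same. The nuclear site read 0.318 in root, 0.671 in seed, 0.425 in flower, 0.626 in seedling, 0.345 in silique, 0.28 in cauline leaf, 0.243 in stem, 0.236 in rosetta leaf and 0.569 in shoot. The mitochondrial site was higher in all 9 tissues, by 0.094 to 0.645 with a median of 0.367. Over the 8 tissues in which both sites passed, which leave out seed, the difference was 0.236 to 0.645. The order of the tissues differed, since rosetta leaf was the highest tissue at the mitochondrial site and the lowest at the nuclear site.

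Position 2166 was the only rRNA member at which root was not the lowest. Its fraction was 0.379 in root, 0.336 in seed, 0.412 in flower, 0.445 in seedling, 0.21 in silique, 0.182 in cauline leaf, 0.194 in stem, 0.154 in rosetta leaf and 0.436 in shoot, and it passed in all but rosetta leaf. The widest gap in this order, 0.126, lay between silique and seed, with 4 tissues below it and 5 above. The aligned bases of the chloroplast 23S and the nuclear 25S are T's that are not listed.

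**Figure D2:**
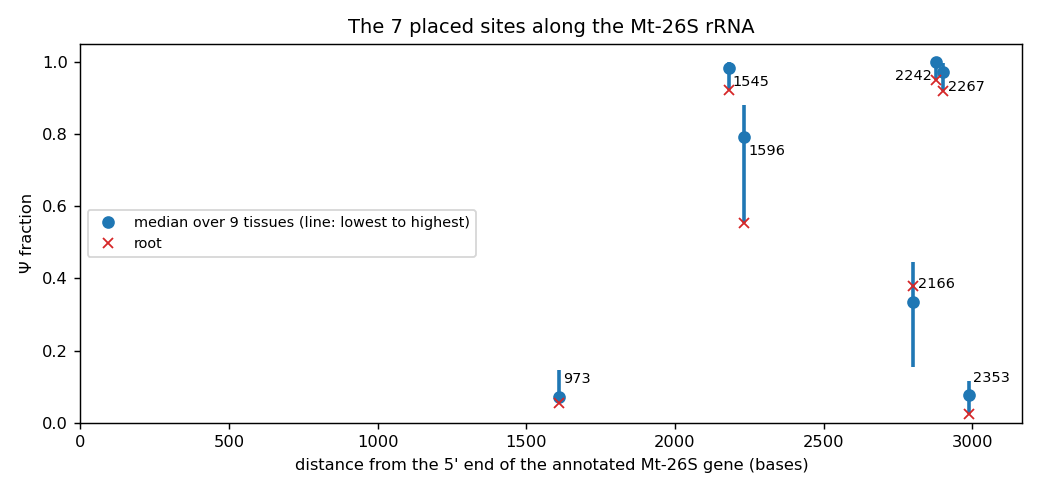
The 7 placed rRNA sites along the annotated Mt-26S gene (horizontal axis, distance in bases from its 5′ end) with the Ψ fraction on the vertical axis. Circles are medians over 9 tissues, lines run from the lowest to the highest tissue and crosses mark root. Sites of high and of low fraction lie near each other, as with positions 2267 and 2353 at the 3′ end, with medians of 0.971 and 0.076.

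The remaining rRNA sites, positions 973, 2353 and 2820, had low fractions. Position 973 had a median of 0.072 and lay between 0.054 in root and 0.145 in cauline leaf, the only tissue in which it passed. Position 2820 likewise passed in cauline leaf alone, at 0.102, its highest value, with a median of 0.059 and a lowest value of 0.023 in root. Both sites thus reached their highest value in the only tissue where they passed, through which they are listed. Position 2353 ranged from 0.023 in root to 0.116 in seed with a median of 0.076, and passed in 5 tissues. The windows of 973 and 2353 are given because both sites, unlike 2820, could be placed, each on a single T.
Mt-26S with position 973: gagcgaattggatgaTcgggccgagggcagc
Mt-26S with position 2353: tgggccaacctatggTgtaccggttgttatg
They lie at chrMT:142342-142372 and chrMT:140962-140992 (reverse strand). The aligned chloroplast base is a T at both, with 15 of 31 bases identical around 973 and 22 of 31 around 2353. No chloroplast or nuclear site is listed at the bases aligned with 973 or 2353, and 973 had no aligned base in the nuclear 25S.

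By their medians over the tissues, 0.965 to 1, the T loop sites of the 4 mitochondrial tRNAs were almost fully modified. In root they read 0.838 to 0.911. Site 56 of tRNA-His read 0.878 in root and 0.929 in seed, and between 0.981 and 1 in the other tissues. Site 55 of tRNA-Lys read 0.864 in root and 0.946 in seed, and between 0.992 and 1 elsewhere. Both passed in all 9 tissues, and in both root and seed lay below each of the other tissues.

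The initiator tRNAs rested on fewer passed values. Met-CAT-4-MT read 0.911 in root, 0.96 in flower, 0.994 in shoot and 1 in the other 5 tissues with a value, had none in seed, and passed in 4 tissues. Met-CAT-6-MT read 0.838 in root, 0.953 in seed, 0.981 in flower, 1 in seedling, 0.894 in silique, 0.804 in stem, 0.976 in rosetta leaf and 0.976 in shoot, with no value in cauline leaf. It passed in root, flower and silique alone, and its lowest tissue, stem, did not pass. Each of these tRNAs has 1 exact copy on nuclear chromosome 2, and the 2 tRNAs share 64 of 74 aligned bases, so reads cannot be assigned to 1 gene with certainty. The site of a nuclear-labelled Met-CAT-4 at the same number was equal to Met-CAT-4-MT in 5 of 8 tissues and differed by at most 0.034.

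The comparison of T loops takes sites by their listed number. It was not checked for every nuclear and chloroplast site that it is standard position 55. Over positions 53 to 57, with Leu, Ser and Tyr tRNAs left out, the median of the site medians was 0.993 in mitochondrial tRNAs (4 sites), 0.968 in chloroplast tRNAs (23 sites) and 0.94 in nuclear tRNAs (65 sites). The 4 mitochondrial sites lay between 0.965 and 1, inside the range of the chloroplast sites (0.889 to 1) and of the nuclear sites (0.163 to 1). In root the median was 0.871 in mitochondrial, 0.844 in chloroplast and 0.772 in nuclear tRNAs. In seed it was 0.946 in mitochondrial, 0.893 in chloroplast and 0.918 in nuclear tRNAs. The mitochondrial median was the highest of the 3 genomes in each of the 9 tissues, but it rests on at most 4 tRNAs. It also includes values that did not pass, such as those of both initiator tRNAs in stem and rosetta leaf.

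**Figure D3:**
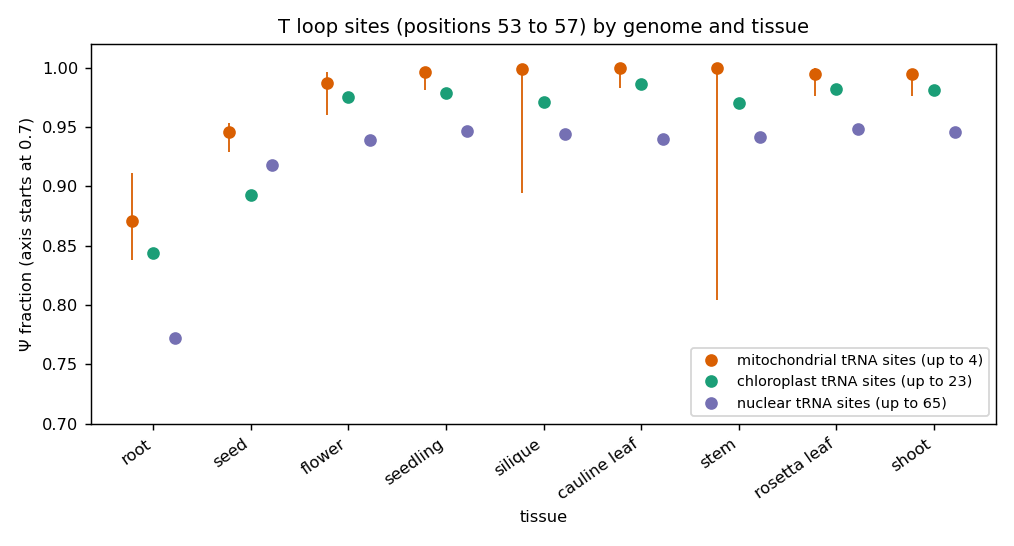
Median Ψ fraction of T loop sites (vertical axis, starting at 0.7) in each tissue (horizontal axis) for mitochondrial, chloroplast and nuclear tRNAs. T loop sites are those listed at positions 53 to 57. The vertical lines run from the lowest to the highest of the mitochondrial sites, and no range is drawn for the other genomes. In root the mitochondrial median is 0.871 and the nuclear median 0.772.

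Of tRNA-His and tRNA-Lys, tRNA-His showed the wider contrast between genomes in the T loop. The mitochondrial site had a median of 0.989 and its chloroplast counterpart, site 55, a median of 1, whereas the nuclear His-GTG-1 and His-GTG-2 had medians of 0.23 and 0.163 at site 54. All 10 annotated nuclear tRNA-His genes have a T at base 54 with a C before it, where both organellar tRNAs have a pair of T's, as the printed sequences show. In tRNA-Lys the T loop read a median of 0.997 in the mitochondrial tRNA, 0.962 in the chloroplast tRNA and 0.929 in the nuclear tRNA. The mitochondrial tRNA-Lys site was above chloroplast site 54 in all 9 tissues, by 0.007 to 0.143. Unlike the organellar tRNA-His sites, this pair was not checked by alignment.

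Site 29 in the anticodon stem of tRNA-His was the most variable tRNA member. It read 0.839 in root, 0.966 in seed, 0.893 in flower, 0.912 in seedling, 0.773 in silique, 0.678 in cauline leaf, 0.91 in stem, 0.681 in rosetta leaf and 0.798 in shoot. Both leaf samples were the lowest, with a gap of 0.092 to silique. Root lay in the middle of this order, unlike at the T loop site of the same tRNA. The same site of the chloroplast tRNA-His was lower in all 9 tissues, with a median of 0.553, so that the mitochondrial value minus the chloroplast value was 0.042 to 0.654. The widest difference was that in root, where the chloroplast site read 0.185 and did not pass. Over the 7 tissues in which both sites passed, which leave out root and seed, the difference was 0.042 to 0.368 with a median of 0.299. The mitochondrial and chloroplast tRNA-His share 71 of 74 aligned bases (95.9%), and the effect of reads assigned to the wrong genome was not tested.

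Site 40, on the opposite strand of that stem, was high and even. It lay between 0.901 in seed, where it did not pass, and 0.977 in stem, with a median of 0.957. The next lowest value was 0.925 in cauline leaf, and root, at 0.975, was the second highest tissue. Its chloroplast counterpart had a median of 1 and was higher in 8 of 9 tissues, by up to 0.075, while in root the mitochondrial site was higher by 0.051. Site 27 of tRNA-Lys read 0.783 in root and 0.827 in seed and between 0.974 and 1 in the other tissues, and did not pass in seed and cauline leaf. The chloroplast tRNA-Lys lists a site of the same number, not checked by alignment, with a median of 0.888 and a range of 0.856 to 0.957. There the mitochondrial site was the higher one in 7 of 9 tissues and the lower one in root and seed, of which seed did not pass at the mitochondrial site.

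**Figure D4:**
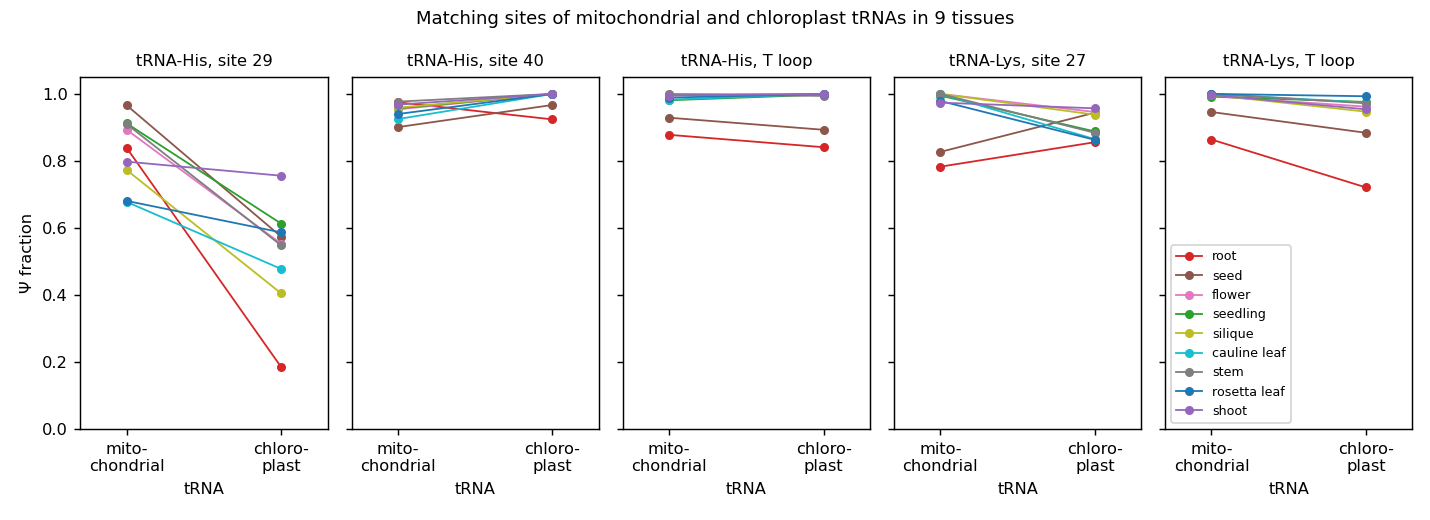
Ψ fraction (vertical axis) at 5 matching sites of mitochondrial (left) and chloroplast (right) tRNAs, with 1 line for each of the 9 tissues. The tRNA-Lys pairs were not checked by alignment. At site 29 of tRNA-His the chloroplast end of each line is the lower one, with root at 0.185, a value that did not pass, whereas at the T loop sites root and seed are low in both.

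Across the 15 sites, root was the tissue that stood lowest. It was strictly the lowest tissue at 11 sites, 7 of 8 in rRNA and 4 of 7 in tRNA, with values that did not pass also counted. At Mt-rRNA positions 973, 2353 and 2820 the root value did not pass, and it was low, at 0.054, 0.023 and 0.023. Root was only just the lowest at 973, with 0.054 against 0.056, and at 2242, with 0.949 against 0.95. Over the whole tables root was strictly the lowest at 47.3% of rRNA sites and 56.7% of tRNA sites. Set against the median of the remaining tissues, root was lower at 13 of the 15, 7 of 8 in rRNA (71.5% of all rRNA sites) and 6 of 7 in tRNA (86% of all tRNA sites). Low root values were thus common throughout both tables. Against shoot, which came from plants of the same age on the same medium, root was lower at 13 of the 15 sites, 8 of 8 in rRNA (81.2% of all rRNA sites) and 5 of 7 in tRNA (90.5% of all tRNA sites). Neither root nor shoot passed at positions 973, 2353 and 2820. The sites at which root was above the median of the remaining tissues were Mt-rRNA position 2166, with a difference of 0.106, and site 40 of tRNA-His, with 0.0195.

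The size of this difference varied among the members. Root minus the median of the remaining tissues had a median of -0.0533 over the rRNA members, against -0.03 over all rRNA sites, and of -0.114 over the tRNA members, against -0.117 over all tRNA sites. The widest differences were -0.267 at Mt-rRNA position 1596 and -0.215 at site 27 of tRNA-Lys. The 3 saturated rRNA sites differed by -0.051 to -0.0645. The 4 T loop sites differed by -0.089 to -0.138.

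Seed showed no common direction among the rRNA members. Of the tRNA members with a seed value, all but site 29 of tRNA-His were below the median of the remaining tissues. Only the T loop sites of tRNA-His and tRNA-Lys among these tRNA members passed in seed. Seed minus the median of the remaining tissues had a median of 0.0135 over the rRNA members, against 0.0122 over all rRNA sites, and of -0.054 over the tRNA members with a seed value, against -0.0295 over all tRNA sites. The lowest difference was -0.171 at site 27 of tRNA-Lys and the highest 0.148 at site 29 of tRNA-His, and neither site passed in seed.

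**Figure D5:**
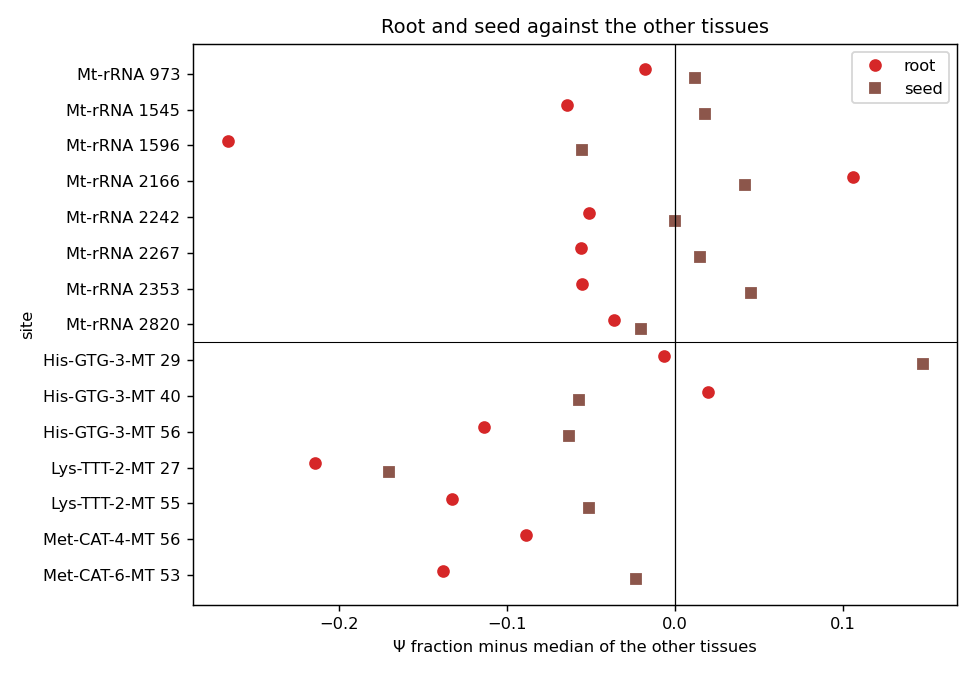
Root (circles) and seed (squares) minus the median of the remaining tissues, in units of Ψ fraction (horizontal axis), for each of the 15 sites (rows). The root circles lie left of 0 at 13 sites, with -0.267 at Mt-rRNA position 1596, and the seed squares lie on both sides.

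The range over tissues, highest minus lowest, was under 0.1 at 8 members. These were 6 of 8 in rRNA, where 34.4% of all rRNA sites were that even, and 2 of 7 in tRNA, where 13.8% of all tRNA sites were. Of the 6 rRNA sites, 3 had a median of at least 0.971 and 3 a median of at most 0.076. The median range was 0.085 over the rRNA members, against 0.137 over all rRNA sites, and 0.136 over the tRNA members, against 0.2 over all tRNA sites. The members that varied most were Mt-rRNA positions 1596 and 2166, with ranges of 0.327 and 0.291, and site 29 of tRNA-His, with 0.288. The lowest value of 2166, 0.154 in rosetta leaf, did not pass, and the next was 0.182 in cauline leaf. Likewise the highest value of site 29, 0.966 in seed, did not pass, and the next was 0.912 in seedling. Without root and seed, the range of position 2166 stayed at 0.291, while that of 1596 was 0.157 and that of site 27 of tRNA-Lys was 0.026, against 0.217 over all tissues.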

How the data were processed

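Total RNA was extracted with TRIzol and sequenced as single reads by the authors, who ran their BID-seq pipeline against TAIR10, added up reads with and without a gap over both replicates and converted the gap ratio with a calibration curve. The deposited value is a fraction per site and tissue, and the deposited TRUE or FALSE flag marks sites passing a filter on p-values whose thresholds are not given in the sources used here. Input libraries enter only through these calls. The sites, comparisons and alternatives were chosen with earlier results of these data known. The rule was to name all members, and of other sites only those aligned with a member or in a tRNA of the same anticodon.

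Medians, ranges and differences were taken over tissues with a value. Sequences and genes came from RefSeq's TAIR10.1 assembly, which may differ from the authors' reference. The 26S gene was aligned locally (match 2, mismatch -2, gap opening -5, extension -1) with the chloroplast 23S gene and with chromosome 2, where 1 offset gave a T at each of the 147 nuclear rRNA sites. The summaries and the placement search were tested on simulated data. Biopython 1.88, numpy 2.4.6 and pandas 2.3.3 were run under Python 3.11.15, and matplotlib 3.10.9 drew the plots.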

Additional observations from a re-analysis of the deposited data

Results flagged for a closer look

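In 4 of the 15 sites a single tissue lay far from the others, judged by its gap to the next tissue as a share of the site's range. Mt-rRNA position 973 read 0.145 in cauline leaf, against 0.078 in the next tissue, a share of 0.736. Cauline leaf was the only tissue in which 973 passed, so the site is listed through this same high value. Mt-rRNA position 1596 read 0.554 in root, against 0.724 in the next tissue, a share of 0.52. Site 55 of Lys-TTT-2-MT read 0.864 in root, against 0.946, a share of 0.603. Site 56 of Met-CAT-4-MT read 0.911 in root, against 0.96, a share of 0.551 over 8 tissues. Tissues are not replicates of a group, and chance alone flags about 1 in 20 groups, so these values are pointers only.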

How the results depend on the processing

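No paired analysis was possible because the deposited values are pooled over replicates, and for the same reason no replicate could be left out. The count of 5 members that passed in all 9 tissues was 8 without seed, 10 with a fraction of at least 0.1 in every tissue in place of the flag and 9 with at least 0.5, or 11 when missing values were ignored. Root minus the median of the other tissues was -0.056 over all members and stayed below 0 throughout, at -0.0767 over passed values, -0.0745 as a mean, -0.0533 in rRNA, -0.114 in tRNA and -0.0767 over members with a median of at least 0.1. Seed minus the median of the others was -0.0102. It changed sign to 0.0135 in rRNA, and was 0 over passed values, -0.0115 as a mean, -0.054 in tRNA and -0.023 over members with a median of at least 0.1. The mitochondrial T loop median of 0.993 was 0.997 for positions 54 to 60, 0.988 as a mean and 0.995 without root. The 11 positions on a T in the whole genome came from placements outside any annotated rRNA. The 6 members aligned with a T of the chloroplast 23S were counted among the placed members only, so these counts cannot be compared. The 8 members with a range under 0.1 were 8 to 11 in the other settings. Of 36 alternatives, 13 (the 11 with missing values ignored, the placement within the 26S gene, the medians over members of at least 0.1 and the 9 differences between matching sites over tissues where both passed) were chosen after seeing the data. Read depth is unknown, so what it limits could not be judged.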
